A study of Schizosaccharomyces pombe with 8 samples.

Results

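The mRNAs of 10 genes of the nuclear RNA elimination machinery of the fission yeast *Schizosaccharomyces pombe* were followed through sequential immunoprecipitations of Mmi1 and Mei2. The genes were taken by their identifiers in the count tables, as genes of this machinery, and are 10 of the 6973 named features. They comprise *red1* (SPAC1006.03c), *mtl1* (SPAC17H9.02), *iss10* (SPAC7D4.14c), *red5* (SPBC337.12), *ars2*, also called *pir2* (SPBC725.08), *rmn1* (SPBC902.04), *erh1* (SPAC19G12.17), *pab2* (SPBC16E9.12c), *pla1* (SPBC646.04) and *rrp6* (SPAC1F3.01). The question was whether transcripts that encode the decay machinery were themselves in the pulldown.

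In mitotic cells, Mmi1, a YTH domain protein, binds meiotic transcripts at clusters of the hexanucleotide UNAAAC, where N is any base, and hands them to a nuclear complex built on the zinc finger protein Red1 and the RNA helicase Mtl1. That complex (MTREC, also named NURS) delivers the RNA to the nuclear exosome, of which Rrp6 is a 3′ to 5′ exonuclease. Mei2, an RNA-binding protein that drives meiosis, antagonises Mmi1.

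Each library held RNA from one of 4 groups with 2 biological replicates each: the TAP-Mmi1 immunoprecipitate (IP), the TAP-Mmi1 whole cell extract (WCE), the GFP-Mmi1 IP and the GFP-Mmi1 WCE. The strain of interest carried kanMX::Pnmt41-TAP-Mmi1, and the negative control carried kanMX::Pnmt41-GFP-Mmi1, each together with natMX::Pnmt1-3xFLAG-Mei2. Both strains thus expressed Mmi1 from the mild nmt41 promoter and overexpressed Mei2 from the strong nmt1 promoter, so that no library shows either protein under its own promoter. Cells were grown at 30 °C in minimal medium, taken at OD 1 in exponential phase and crosslinked with 0.2% formaldehyde. IgG beads took up the TAP tag, TEV protease released it, and anti-FLAG beads then took up Mei2, so that an RNA in the IP had passed both steps. GFP-Mmi1 carries no TAP tag for the first step.

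Named features summed to between 34415561 and 53703741 reads per library. Of these, rRNA made up 79.2% and 82.0% (TAP-Mmi1 IP), 96.4% and 96.0% (GFP-Mmi1 IP) and 7.98% to 27.4% (WCE, the only fraction depleted of rRNA before sequencing). The control IP therefore left 1248446 and 1373823 reads for all other RNA, and the counts of single mRNAs there are small. As a scale, the meiotic mRNAs *ssm4*, *mei4* and *mcp5*, known targets of Mmi1, were 4.26, 3.98 and 3.70 log2 units higher over the control. The paper holds that several meiotic mRNAs targeted by Mmi1 were most likely recovered here through ectopic binding of the overexpressed Mei2.

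The sense strand of the 10 annotated genes held 45 matches to UNAAAC in the RefSeq genome (assembly ASM294v3). *red1* (chrI:5070931-5073898, minus strand, 4 exons) held 12, of which 7 lay in coding sequence, 3 in the 3′ UTR and 2 in introns. *mtl1* (chrI:2004706-2008108, plus strand, 1 exon) and *iss10* (chrI:2611026-2613002, plus strand, 1 exon) held 7 each, *red5* (chrII:1051603-1053615, plus strand, 3 exons) 6, *pab2* (chrII:1939371-1940788, minus strand, 4 exons) 5 and *pla1* (chrII:928885-931046, plus strand, 4 exons) 4. *ars2* (chrII:1219405-1221590, plus strand, 4 exons) held 2, *rmn1* (chrII:489856-492221, plus strand, 4 exons) and *rrp6* (chrI:610848-613338, plus strand, 2 exons) 1 each, and *erh1* (chrI:4066258-4066971, minus strand, 6 exons) 0. The letters are common. A match was present in 90.7% of all 5105 mRNA genes, with a median of 1.65 per kb, and the opposite strand of the same 10 genes held 60.

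Matches are shown from the enriched mRNAs that hold any (*red1*, *red5* and *iss10*), from *pab2*, which is as dense in matches as *iss10* but was not called over the control, and from *rmn1* and *rrp6*, which hold single matches and were not called either. *erh1*, the highest by enrichment, has none to show in its annotated span, which holds no UTR. The capitals mark UNAAAC, coordinates are those of the 6 capital bases, and the number after each gene is the distance of the first capital base from the annotated 5′ end.
red1, coding, nt 807 (chrI:5073087-5073092, minus strand): cuuucuuuccUCAAACcgccuccuca
red1, coding, nt 820 (chrI:5073074-5073079, minus strand): aaccgccuccUCAAACaaaaccuuuu
red1, 3′ UTR, nt 2690 (chrI:5071204-5071209, minus strand): ccauuuagauUGAAACugccaagcaa
red1, 3′ UTR, nt 2708 (chrI:5071186-5071191, minus strand): ccaagcaacaUCAAACuaacuguaaa
red1, 3′ UTR, nt 2796 (chrI:5071098-5071103, minus strand): uuugccguuaUAAAACuaaugucacu
red5, 5′ UTR, nt 129 (chrII:1051731-1051736, plus strand): aaggucauugUCAAACauauaagcuc
red5, 5′ UTR, nt 212 (chrII:1051814-1051819, plus strand): ggcauuuaacUUAAACaguuuuguuu
red5, 5′ UTR, nt 308 (chrII:1051910-1051915, plus strand): ccacucauuuUAAAACauugagcaaa
red5, 5′ UTR, nt 358 (chrII:1051960-1051965, plus strand): aguggugguuUAAAACaggaaauacu
iss10, 5′ UTR, nt 18 (chrI:2611043-2611048, plus strand): aaauguugaaUAAAACuuuuuuuggg
iss10, coding, nt 452 (chrI:2611477-2611482, plus strand): uacuuaauagUCAAACaaaaccugaa
pab2, coding, nt 203 (chrII:1940581-1940586, minus strand): aacuagauaaUGAAACggaagcuuug
pab2, 3′ UTR, nt 919 (chrII:1939865-1939870, minus strand): uucacuauauUAAAACauauaugcug
rmn1, coding, nt 1266 (chrII:491121-491126, plus strand): gaagaacguuUAAAACgcauaaaugc
rrp6, coding, nt 2098 (chrI:612945-612950, plus strand): uaaagaacccUCAAACcccauagagg
The matches of *red1* included a close pair in coding sequence and another at the start of the 3′ UTR. *red5* was the only one of the 10 with 4 matches in its 5′ UTR, whereas its coding sequence held 0. *rmn1* and *rrp6* had the single matches printed, and *erh1* had none on its own strand. The exons of *erh1* are annotated as coding sequence only, so a match in an untranslated end of its mRNA would be missed.

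**Figure D1:**
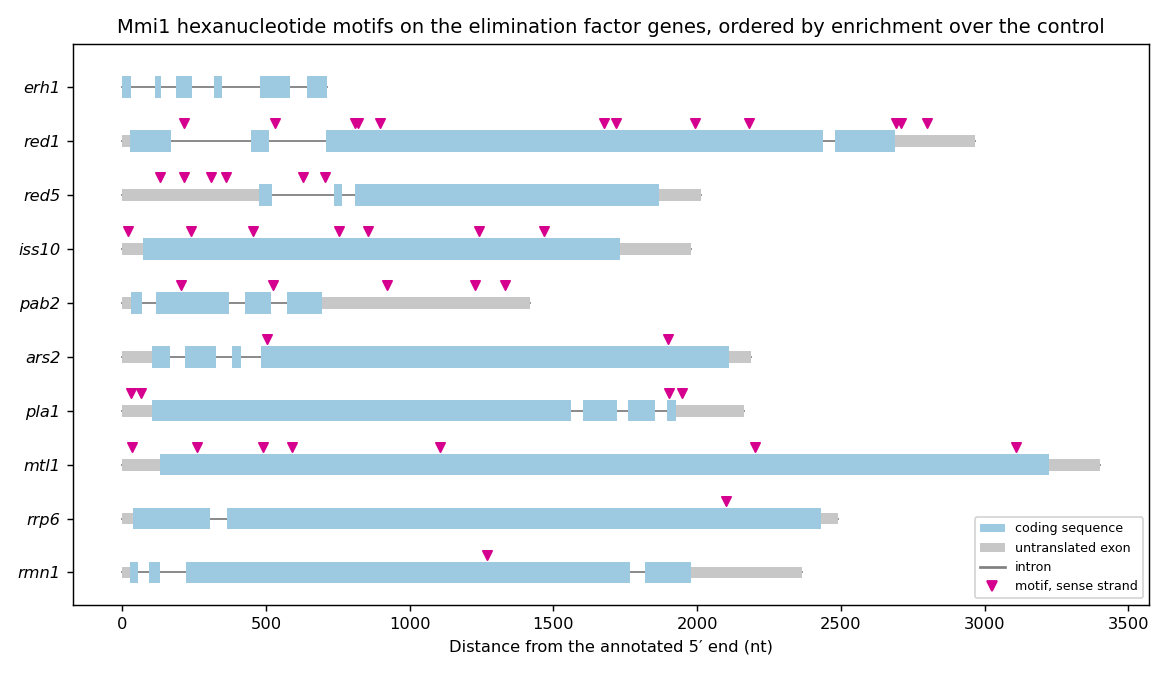
Gene models of the 10 genes drawn to scale from the annotated 5′ end (horizontal axis, nt), with coding sequence, untranslated exons and introns, and a triangle for each UNAAAC match on the sense strand. Genes run from the highest enrichment over the control (*erh1*, 0 matches) at the top to the lowest (*rmn1*, 1 match) at the bottom. *erh1* is annotated without UTRs. *red1* carries 12 matches along its length, and 4 of the 6 matches of *red5* lie in its 5′ UTR.

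All 10 mRNAs had reads in every library, from 151 to 3014 in the 2 TAP-Mmi1 IP libraries, 571 to 8243 in their WCE, 3 to 164 in the 2 GFP-Mmi1 IP libraries and 545 to 6838 in their WCE. Enrichment over the control was the log2 IP/WCE value of the TAP-Mmi1 strain less that of the GFP-Mmi1 strain, after TMM scaling, which sets the typical feature of each library near 0. By this measure 4 of the 10 were higher with TAP-Mmi1 and 0 were lower (edgeR quasi-likelihood test, Benjamini-Hochberg adjusted p under 0.05 over 6827 features). The 4 were *erh1*, *red1*, *red5* and *iss10*. Among all features tested, 18.9% were called higher and 23.7% lower. The median was 0.52 over the 10 genes, -0.05 over all features and -0.17 over 5080 mRNAs. These 4 genes were also called higher under each of 14 other settings, the culture as a block among them, and with library totals alone.

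**Figure D2:**
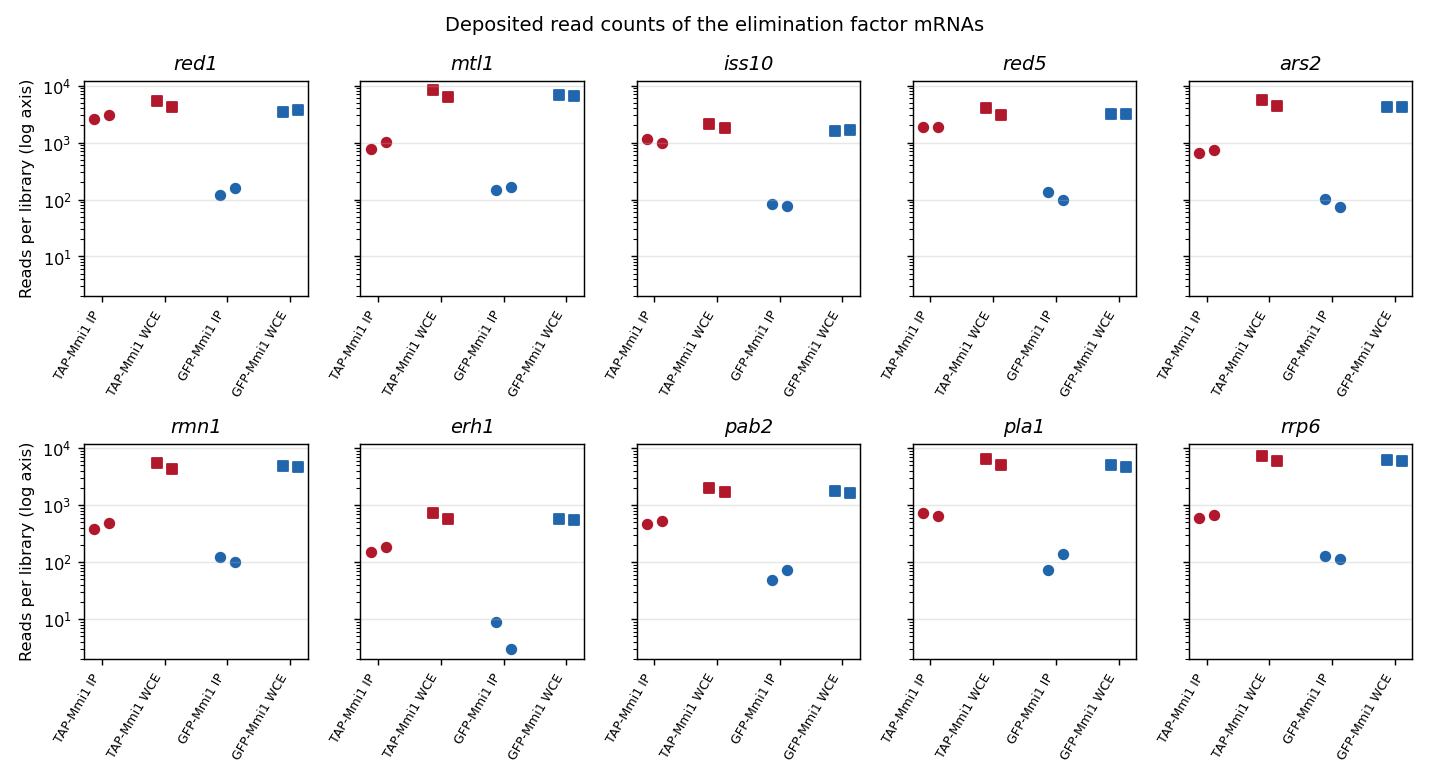
Deposited reads per library (vertical log axis) of each of the 10 mRNAs in the 2 replicates of the TAP-Mmi1 IP, TAP-Mmi1 WCE, GFP-Mmi1 IP and GFP-Mmi1 WCE. Circles are IP and squares WCE libraries, with TAP-Mmi1 in red and GFP-Mmi1 in blue. The TAP-Mmi1 IP lies above the GFP-Mmi1 IP for every gene, and *erh1* has the fewest reads in the control IP, 9 and 3.

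The core of the complex split. *red1*, whose protein is the zinc finger scaffold, had 2635 and 3014 TAP-Mmi1 IP reads beside 5312 and 4179 TAP-Mmi1 WCE reads, against 121 and 159 GFP-Mmi1 IP reads beside 3497 and 3677 GFP-Mmi1 WCE reads. The IP/WCE ratios as counted were thus 0.496 and 0.721 for TAP-Mmi1, against 0.0346 and 0.0432 for GFP-Mmi1. Both TAP-Mmi1 ratios were above both GFP-Mmi1 ratios, as they were for 88.2% of all features and all 10 genes on unscaled counts. After TMM scaling *red1* rose 3.12-fold over the control (log2 1.64 ± 0.22 SE, adjusted p = 0.000956), which placed it higher than 87.5% of all features. Within the TAP-Mmi1 strain alone its log2 IP over WCE was 2.10 (adjusted p = 1.87e-05).

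*mtl1*, which encodes the helicase that pairs with Red1, was not called over the control. It gave 755 and 1014 reads in TAP-Mmi1 IP replicates from extracts with 8243 and 6319, against 146 and 164 reads in GFP-Mmi1 IP replicates from extracts with 6838 and 6597. Its ratios were 0.0916 and 0.161 with TAP-Mmi1, around the median of 0.125 over all mRNAs, and 0.0214 and 0.0249 with GFP-Mmi1, where the mRNA median was 0.0278. The log2 enrichment over the control was 0.11 ± 0.23 SE (adjusted p = 0.722), and it changed sign when the second TAP-Mmi1 IP (-0.12) or the first GFP-Mmi1 IP (-0.02) was left out. Within the TAP-Mmi1 strain its log2 IP over WCE was -0.19 (adjusted p = 0.322), and without the second TAP-Mmi1 IP it passed as lower (-0.43, adjusted p = 0.0283). *mtl1* is the longest of the 10, with 7 matches to UNAAAC, and its density of 2.06 per kb was reached by 34.3% of mRNA genes.

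Among the proteins that join the core, the mRNAs of Iss10 and Red5 were enriched and those of Ars2 and Rmn1 were not called. *iss10*, which encodes a Red1 partner that links it to Mmi1, was counted 1164 and 1000 times in TAP-Mmi1 IP libraries (2145 and 1807 in their WCE), against 82 and 76 times in GFP-Mmi1 IP libraries (1609 and 1643 in their WCE). Its TAP-Mmi1 ratios were 0.543 and 0.553 as counted, against 0.0510 and 0.0463 for GFP-Mmi1, and with TMM library sizes they were 4.39 and 3.50, against 1.76 and 1.66. *iss10* rose by 1.20 ± 0.21 SE on the log2 scale over the control (adjusted p = 0.00263). It was also the only one of the 10 called higher in the control IP than in the control WCE relative to the typical feature. The log2 value was 0.77 (adjusted p = 0.0160, or 0.0515 in the fit blocked by culture). *red1*, *pab2* and *red5* were positive there as well, at 0.46, 0.35 and 0.35, without being called. The *iss10* call was lost when any 1 of the 4 WCE libraries was left out.

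*red5* encodes a zinc finger protein of the complex. It had 1860 and 1906 TAP-Mmi1 IP reads beside 3976 and 3025 TAP-Mmi1 WCE reads, against 136 and 98 GFP-Mmi1 IP reads beside 3226 and 3201 GFP-Mmi1 WCE reads. The ratios with TAP-Mmi1 were 0.468 and 0.630, and those with GFP-Mmi1 were 0.0422 and 0.0306. It rose 3.05-fold over the control (log2 1.61 ± 0.19 SE, adjusted p = 0.000486), close to *red1*. The genomic span of *red5* held the putative Mei2 motif (UUUG, UUGG or UUAG) 24.8 times per kb. That density was reached by 2.74% of mRNA genes, where the median is 16.99. The other 9 genes ranged from 13.0 to 20.5 per kb. Of the 50 matches in *red5*, 38 lay in exons. Per kb of exon *red5* had 21.7, near the 20.7 of *pab2*, which was not called over the control, and *erh1* had 3.175.

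*ars2*, whose protein bridges the complex to capped RNA, gave 647 and 741 reads in TAP-Mmi1 IP replicates from extracts with 5471 and 4342, against 102 and 74 reads in GFP-Mmi1 IP replicates from extracts with 4174 and 4148. The TAP-Mmi1 ratios of 0.118 and 0.171 bracketed the median of all mRNAs. Its log2 enrichment was 0.46 ± 0.21 SE (adjusted p = 0.122), with adjusted p-values between 0.0180 and 0.235 under the other settings. It passed with DESeq2 (0.54), which called 25.1% of all features higher and 26% lower, and without the first GFP-Mmi1 IP (0.66).

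*rmn1*, which encodes an RNA-binding subunit, was counted 380 and 480 times in TAP-Mmi1 IP libraries (5467 and 4405 in their WCE), against 125 and 99 times in GFP-Mmi1 IP libraries (4785 and 4624 in their WCE). It had the lowest TAP-Mmi1 ratios of the set, 0.0695 and 0.109, below the mRNA median, while its GFP-Mmi1 ratios of 0.0261 and 0.0214 were near the mRNA median of that strain. The log2 enrichment was -0.41 ± 0.22 SE (adjusted p = 0.172), the only negative value among the 10, and without the second TAP-Mmi1 IP it passed as lower (-0.60, adjusted p = 0.0425). Within the TAP-Mmi1 strain *rmn1* fell by 0.67 on the log2 scale in the IP relative to its WCE (adjusted p = 0.00563). The gene *idh2* on the opposite strand covers 14.7% of *rmn1*, and whether the counting used strand is not given in the sources used here.

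*erh1* encodes the partner with which Mmi1 forms a stable complex, and its mRNA had both the largest estimate and the largest error. It had 151 and 182 TAP-Mmi1 IP reads beside 716 and 571 TAP-Mmi1 WCE reads, against 9 and 3 GFP-Mmi1 IP reads beside 572 and 545 GFP-Mmi1 WCE reads. Exact Poisson 95% intervals around the control counts ran from 4.12 to 17.1 and from 0.619 to 8.77 and cover counting error only. The ratios were 0.211 and 0.319 for TAP-Mmi1, against 0.0157 and 0.00551 for GFP-Mmi1, with no overlap, as for most features on unscaled counts. *erh1* rose by 2.31 ± 0.54 SE on the log2 scale over the control (adjusted p = 0.0107, or 0.0320 in the fit blocked by culture). The size rested on the control IP. Leaving out its first replicate gave 3.25 and leaving out its second gave 1.76, both still under the threshold. In the TAP-Mmi1 strain alone the log2 IP over WCE was 0.90 (adjusted p = 0.0340, or 0.130 in the fit blocked by culture), whereas in the GFP-Mmi1 strain it was -1.41 (adjusted p = 0.0672).

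The call within the TAP-Mmi1 strain was lost without the second TAP-Mmi1 IP or any of the 4 WCE libraries (adjusted p from 0.0728 to 0.195). Its TAP-Mmi1 value was below those of *red1*, *iss10* and *red5*, at 2.10, 1.97 and 1.96. *erh1* was the shortest gene of the set, with 714 nt in 6 exons, of which introns make up 399 nt. The features whose scaled values over all 8 libraries came closest to its own were the lncRNAs SPNCRNA.1461 and SPNCRNA.1561 and the mRNA *nad1*, with Euclidean distances of 0.287, 0.465 and 0.292 in log2 units. For *rmn1*, at the other end, the closest were *cdc31*, *cft1* and *kap123*, at 0.213, 0.240 and 0.252.

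The 3 remaining factors act on the tail and the body of the RNA. *pab2*, the nuclear poly(A)-binding protein gene, gave 475 and 520 reads in TAP-Mmi1 IP replicates from extracts with 2040 and 1703, against 48 and 74 reads in GFP-Mmi1 IP replicates from extracts with 1757 and 1610. Its ratios of 0.233 and 0.305 with TAP-Mmi1 lay above 83.1% of mRNAs on average, against 0.0273 and 0.0460 with GFP-Mmi1, where the replicates were well apart. *pab2* was higher in the TAP-Mmi1 IP than in its WCE, by 0.93 on the log2 scale (adjusted p = 0.00532), and without the first TAP-Mmi1 WCE the adjusted p was 0.0645. Against the control it did not pass (0.58 ± 0.31 SE, adjusted p = 0.170), except with DESeq2 (0.66) and without the second GFP-Mmi1 IP (0.97). The antisense lncRNA SPNCRNA.1478 covers 51.5% of *pab2* and had 420 and 412 reads in the TAP-Mmi1 IP, and with the strand setting unknown its reads and those of *pab2* cannot be told apart.

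*pla1*, the gene of the canonical poly(A) polymerase, was counted 718 and 636 times in TAP-Mmi1 IP libraries (6454 and 5060 in their WCE), against 72 and 138 times in GFP-Mmi1 IP libraries (5133 and 4741 in their WCE). The TAP-Mmi1 ratios, 0.111 and 0.126, were at the mRNA median, and the GFP-Mmi1 ratios, 0.0140 and 0.0291, differed from each other by more than those of TAP-Mmi1 in proportion. The log2 enrichment of 0.17 ± 0.36 SE (adjusted p = 0.725) became -0.26 without the first GFP-Mmi1 IP and 0.77 (adjusted p = 0.0118) without the second, so that 1 control library decided it. Within the TAP-Mmi1 strain its log2 IP over WCE was -0.24 (adjusted p = 0.415), and without either GFP-Mmi1 IP, which then no longer enters the shared spread, it passed (adjusted p = 0.0454 and 0.0467).

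*rrp6*, which encodes the exonuclease at the end of the pathway, had 592 and 678 TAP-Mmi1 IP reads beside 7279 and 5869 TAP-Mmi1 WCE reads, against 126 and 113 GFP-Mmi1 IP reads beside 6193 and 6049 GFP-Mmi1 WCE reads. The ratios were 0.0813 and 0.116 for TAP-Mmi1, against 0.0203 and 0.0187 for GFP-Mmi1. Relative to the typical feature, *rrp6* was lower in the IP of both strains than in its extract, with log2 values of -0.53 with TAP-Mmi1 (adjusted p = 0.00528) and -0.55 with GFP-Mmi1 (adjusted p = 0.0261, or 0.0794 in the fit blocked by culture). The second call was lost without either GFP-Mmi1 WCE (adjusted p = 0.108 and 0.104). The difference between the strains was 0.02 ± 0.17 SE (adjusted p = 0.938).

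**Figure D3:**
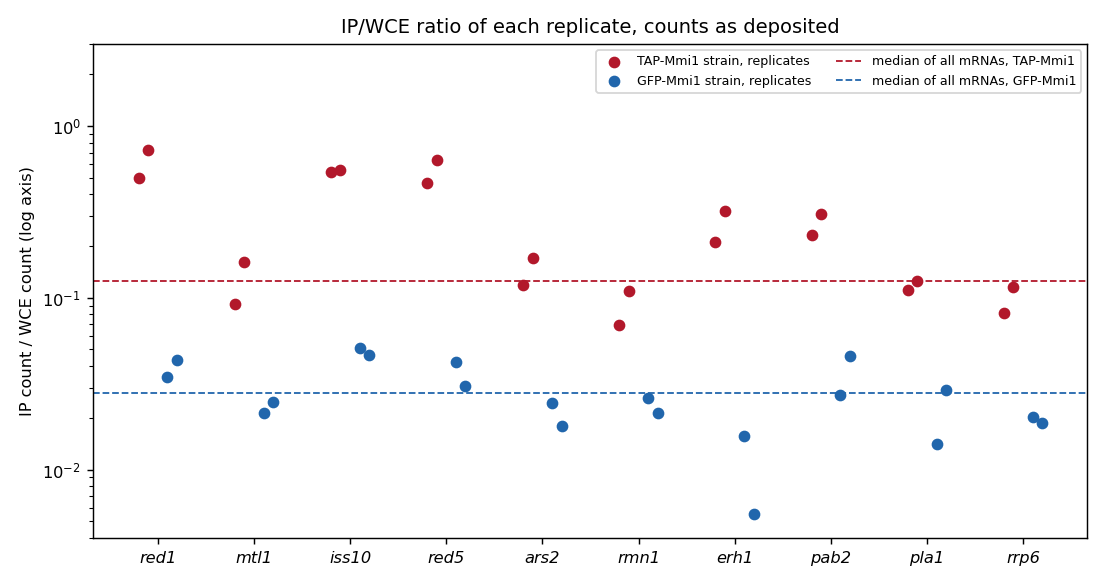
IP count over WCE count (vertical log axis) of each of the 10 mRNAs in each replicate, TAP-Mmi1 in red and GFP-Mmi1 in blue, without any scaling. Dashed lines are the medians over all mRNAs, 0.125 with TAP-Mmi1 and 0.0278 with GFP-Mmi1. *red1*, *iss10* and *red5* stand highest with TAP-Mmi1, at means of 0.609, 0.548 and 0.549, and *erh1* lowest with GFP-Mmi1.

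Within the TAP-Mmi1 strain, 5 of the 10 mRNAs were higher in the IP than in the WCE (*red1*, *iss10*, *red5*, *pab2* and *erh1*) and 2 were lower (*rmn1* and *rrp6*), where 29.2% of all features were higher and 30.7% lower. Within the GFP-Mmi1 strain, 1 was higher (*iss10*) and 1 lower (*rrp6*), with backgrounds of 11.1% and 6.44%. Without the first GFP-Mmi1 IP, *red1* and *pab2* were also called higher and *ars2* and *erh1* lower in the control, and without the second *red5* was called higher and *pla1* lower. The comparisons share libraries, since each strain's values enter the difference between strains.

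How many of the mRNAs count as enriched depended on the scaling. With library totals alone, in which the rRNA left in each IP takes its full share, all 10 were higher over the control, by 2.27 (*rmn1*) to 4.97 (*erh1*) on the log2 scale. So were 89.5% of all features, whose median was 2.63, with 0.469% lower. The order of the 10 genes was unchanged. On the same scaling all 10 values of the TAP-Mmi1 IP against its WCE were negative, from -3.04 (*rmn1*) to -0.26 (*red1*), and 7 were called lower, with 84.7% of all features lower and 3.95% higher. The GFP-Mmi1 IP had all 10 lower than its WCE, from -6.43 (*erh1*) to -4.28 (*iss10*), with 98.2% of all features lower and 0.747% higher.

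The rule that the study states beside its list of enriched RNAs uses IP/WCE ratios, computed here from the deposited counts: a relative SD of the TAP-Mmi1 ratios under 0.3 and a mean over 2 times that of the control. It retained 8 of the 10 mRNAs, and 58.3% of all features. On these unscaled counts *mtl1* and *rmn1* failed the limit on relative SD (0.386 and 0.313), with ratios 5.45 and 3.76 times the control. With TMM library sizes their relative SDs were 0.222 and 0.144, under the limit, and both failed on the fold over the control (1.08 and 0.75). The TAP-Mmi1 mean over the GFP-Mmi1 mean was 24.9 for *erh1*, 15.6 for *red1* (0.609 ± 0.159 and 0.0389 ± 0.00611, SD, n = 2 each), 15.1 for *red5*, 11.3 for *iss10* and 5.04 to 7.34 for *pab2*, *ars2*, *pla1* and *rrp6*. With TMM library sizes the rule retained 4 genes (*red1*, *red5*, *iss10* and *erh1*) and 16.2% of all features, and both ratios stood above the control for 6 genes, with *pab2* and *ars2*, and for 33.3% of all features.

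**Figure D4:**
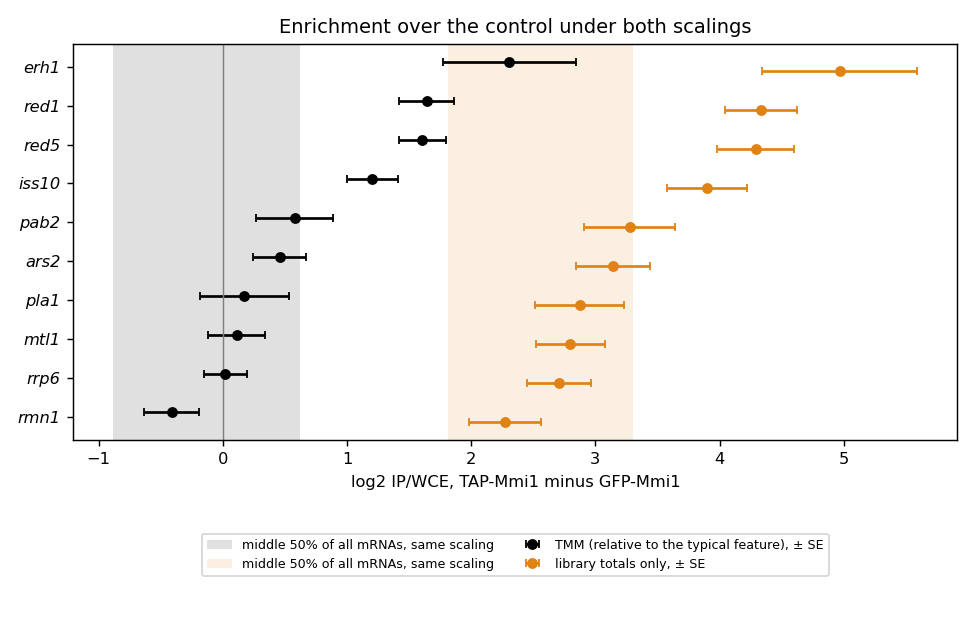
Enrichment over the control (horizontal axis, log2 IP/WCE with TAP-Mmi1 minus GFP-Mmi1, ± SE of the edgeR fit) of the 10 mRNAs after TMM scaling (black) and with library totals only (orange). Shaded bands hold the middle 50% of all mRNAs on each scaling, -0.88 to 0.62 with TMM and 1.81 to 3.31 with library totals. On both, *erh1*, *red1*, *red5* and *iss10* lie to the right of the band, and *rmn1* is the lowest of the 10.

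The mRNA levels before the pulldown gave no called difference between the strains. The log2 difference of the TAP-Mmi1 WCE against the GFP-Mmi1 WCE ran from -0.17 (*rmn1*) to 0.16 (*red1*), and 0 of the 10 passed with edgeR, nor with an unadjusted p under 0.05, as the smallest was 0.249. DESeq2 called 0 of the 10 as well, and so did library totals alone, for which the background was 0.176% higher and 0.103% lower. With TMM scaling the background in this comparison was 0.293% higher and 0.0586% lower.

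Levels between genes were compared as CPM (counts scaled to the library total) per kb of annotated span in the WCE. From high to low, the means over the 4 WCE libraries were 59.1 ± 10.1 for *rrp6*, 56.9 ± 7.79 for *pla1*, 47.7 ± 5.94 for *ars2*, 47.6 ± 8.24 for *mtl1*, 47.3 ± 8.69 for *rmn1*, 38.6 ± 6.59 for *red5*, 32.0 ± 2.62 for *red1*, 29.0 ± 4.44 for *pab2*, 20.9 ± 2.08 for *iss10* and 19.4 ± 2.66 for *erh1* (SD, n = 4). Neighbours in this order overlapped in range, except that all values of *pab2* (24.0 to 34.0) were above all of *iss10* (18.3 to 22.8). The ranges include shifts between libraries that all genes share. Within each of the 4 libraries *pla1* was above *ars2*, *rmn1* above *red5*, *red5* above *red1* and *iss10* above *erh1*. The remaining neighbours changed order between libraries. The median over mRNAs was 38.8, so that these genes lay between the 15.96th and the 70.36th percentile.

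The 4 mRNAs called higher and *pab2*, which ranked next, had the 5 lowest WCE levels per kb of the set. The same tilt was present across all mRNAs: over 5080 mRNA genes, which are not independent replicates, Spearman's rho between WCE level and log2 enrichment was -0.46, and the median enrichment in 4 equal bins of rising WCE level was 0.41, 0.12, -0.19 and -1.07. *erh1* and *iss10* were in bin 1, *red1*, *red5* and *pab2* in bin 2, and the other 5 in bin 3. The level is per kb of span, and introns make up 399 of the 714 nt of *erh1*. Per kb of exon *erh1* would stand higher, and neither the order nor the bins were computed by exon length. Of the 10 values, 9 lay above the median of their own bin and *rmn1* lay below it. The part of WCE level in the result was not tested.

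**Figure D5:**
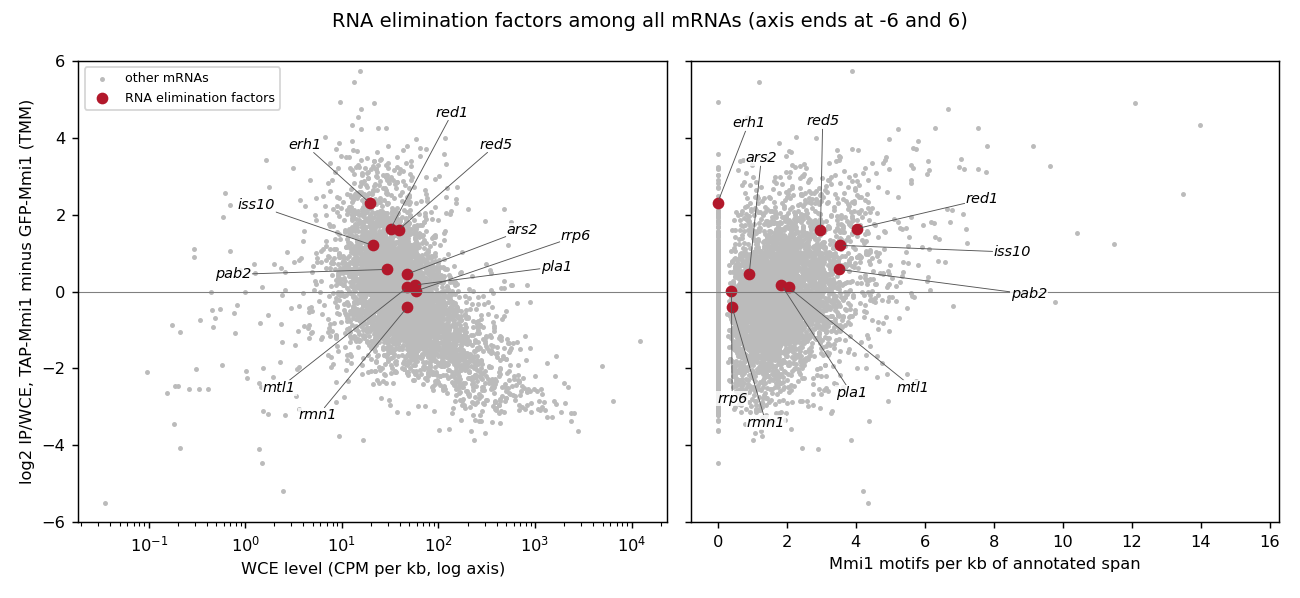
Log2 enrichment over the control after TMM scaling (vertical axis) against the WCE level in CPM per kb (left, log axis) and against UNAAAC matches per kb of annotated span (right), for the 10 genes (red) and all other mRNAs (grey). The vertical axis ends at 6, and 15 mRNAs lie above it. Spearman's rho over 5080 mRNAs was -0.46 on the left and 0.28 on the right. *erh1* is high without any match in its annotated span, which holds no UTR.

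The density of UNAAAC also moved with enrichment across mRNAs, with Spearman's rho of 0.28 per kb over the same genes. *red1* had 4.04 matches per kb, a density that 4.02% of mRNA genes reach, *iss10* 3.54 and *red5* 2.98, reached by 6.60% and 12.16%. *pab2*, with 3.53 per kb, was as dense as *iss10* without being called over the control. *rmn1* and *rrp6*, at 0.42 and 0.40 per kb, were among the lower densities and had enrichments of -0.41 and 0.02. *mtl1*, *pla1* and *ars2*, at 2.06, 1.85 and 0.91 per kb, had enrichments of 0.11, 0.17 and 0.46, the reverse of their order in density. *erh1* had 0 matches and the highest value, but its annotated span holds no UTR. Matches in untranslated ends, which *red5*, *red1* and *pab2* have, could not be found for it. With exons only, 40 of the 45 matches were left, as 2 of *red1*, 2 of *red5* and 1 of *pab2* lie in introns. Per kb of exon *red5* had 2.28, near *mtl1* at 2.06.

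The rest of the pathway, from lists chosen by known function, was mixed. Its counts are relative to the typical feature, with 18.9% of all features higher and 23.7% lower, and with library totals alone every list member named here was positive over the control. Of 10 core exosome subunits, 2 were higher over the control (*rrp43*, by 2.60, and *rrp45*, by 1.57) and 1 was lower (*rrp4*, at -0.94), with a median of -0.13. With library totals all 10 were higher. Of 5 exosome cofactors and subunits of TRAMP, the complex that adds short tails to exosome substrates, 4 were higher and 1 was lower, with a median of 1.00, whereas all 5 were higher with library totals. *mpp6*, whose protein binds the exosome, rose by 2.06, the zinc knuckle protein gene *air1* by 1.36, the poly(A) polymerase gene *cid14* by 1.00 and *cti1*, the gene of an exosome cofactor, by 0.90, while the helicase gene *mtr4* fell by 1.20, a direction that turned with library totals (1.501, adjusted p = 0.000210). Mtr4 and Mtl1 are related helicases. Neither of their mRNAs was called higher over the control after TMM scaling, and *mtr4* had ratios of 0.130 and 0.116 for TAP-Mmi1, against 0.0626 and 0.0531 for GFP-Mmi1.

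Of 4 further partners of Red1 and Mtl1, *nrl1* (0.94) and *cbc2* (0.78), a cap-binding subunit, were higher over the control (all 4 were with library totals), and *cbc1*, the other cap-binding subunit, had -0.46 (adjusted p = 0.0602). *mmi1* itself had 2.41 (adjusted p = 0.0572), but it was expressed from the nmt41 promoter as a fusion and is no measure of the natural transcript. Of 10 cleavage, polyadenylation and termination factors, 2 were higher (*yth1*, by 1.35, and *ysh1*, by 0.64) and 4 were lower (*rna15*, *seb1*, *dhp1* and *cft1*), with a median of -0.62. With library totals 9 of them were higher and 0 lower, with a median of 2.06. *rna15*, which encodes a subunit of a cleavage factor, fell by 2.16 after TMM scaling, and *seb1*, the gene of a termination factor, fell by 1.06. With library totals *seb1* (1.64), *dhp1* (1.98) and *cft1* (2.10) were called higher, and *rna15* had 0.53 (adjusted p = 0.0803).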

How the data were processed

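Total and immunoprecipitated RNA from 2 biological replicates of each strain was sequenced (paired-end, 75 nt). The authors demultiplexed with bcl2fastq 2.18.12, trimmed with Cutadapt 1.15, aligned with Bowtie2 and counted with MulticovBed, and deposited raw read counts per feature. Genome build, annotation and strand setting are not given in the sources used here. One row without a name (at most 0.0552% of counts) was left out, which left 6973 features.

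Tests used edgeR 4.0.16 under R 4.3.3 on the deposited counts (filterByExpr by group, TMM, robust quasi-likelihood, 1 fit over 8 libraries in 4 groups), with Benjamini-Hochberg adjustment over 6827 features and a threshold of 0.05. SE was derived from the log2 difference and its F statistic (size divided by the root of F). With 2 replicates per group, the spread is shared by all groups. An IP and the WCE of the same strain and number come from 1 culture by design. Their replicate differences correlated at 0.0888 (TAP-Mmi1) and 0.0262 (GFP-Mmi1), and a fit with the culture as a block was run beside it. Alternatives were library totals with and without rRNA (the second chosen after seeing the data), DESeq2 1.42.0, no low-count filter, rRNA features left out, a minimum log2 difference of 1, other limits of the ratio rule, and each library left out in turn. WCE levels are CPM per kb of annotated span. Motifs were searched as UNAAAC and as UUUG, UUGG or UUAG on both strands of the RefSeq sequence of ASM294v3, in windows with 10 nt on each side where printed. Of 6973 features, 6813 matched that annotation. PCR copies were not told apart by molecular identifiers, so counting intervals cover counting error only. The test of the difference between strains was also run on counts simulated from these data. The simulation gave every feature the same dispersion, and no result given here rests on it.

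The 10 genes and the pathway lists were chosen with earlier results of these data known. The text names the 10 genes, the list genes past the threshold in the difference between strains (if over 4, the 2 highest and 2 lowest) and the 3 features closest to the highest and lowest of the 10. *ssm4*, *mei4* and *mcp5* serve as scale. *cid14*, *cbc1*, *mmi1*, *dhp1* and the overlapping *idh2* and SPNCRNA.1478 fall outside this rule and were named after their values were seen.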

Additional observations from a re-analysis of the deposited data

Results flagged for a closer look

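Of the 10 mRNAs, 4 had an IP/WCE ratio that differed between the strains by a test of the difference itself (edgeR quasi-likelihood test, 2 libraries per group). The log2 difference, TAP-Mmi1 minus GFP-Mmi1, was 2.31 for *erh1*, 1.64 for *red1*, 1.61 for *red5* and 1.20 for *iss10*. For each of them both TAP-Mmi1 ratios were above both GFP-Mmi1 ratios, with the counts as deposited and with TMM library sizes, as for 88.2% and 33.3% of all features. The value of *erh1* rests on 9 and 3 reads in the control IP. Groups of 2 libraries are too small to look for single libraries that stand apart.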

How the results depend on the processing

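Library totals alone moved most counts, since rRNA then takes its full share of each IP. In the difference between strains, 6113 features and all 10 mRNAs were higher and 32 lower, and *rmn1* turned to 2.27. For the TAP-Mmi1 IP against its WCE, 270 features were higher and 5785 lower, with 0 of the 10 mRNAs higher and 7 lower, and *red1* (-0.26), *iss10* (-0.38), *red5* (-0.41), *ars2* (-2.34), *erh1* (-1.47) and *pab2* (-1.43) turned negative. For the GFP-Mmi1 IP against its WCE, 51 features were higher and 6707 lower, with 0 and 10 of the mRNAs, and *red1* (-4.60), *iss10* (-4.28), *red5* (-4.70) and *pab2* (-4.70) turned negative. Between the WCE, 12 features were higher and 7 lower, with *red1* at -0.11 and *iss10* at -0.23.

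Library totals without rRNA gave 1388 features higher and 2639 lower in the TAP-Mmi1 IP, with 4 mRNAs higher, since the *erh1* call was lost (0.57, adjusted p = 0.174), and 4 lower (*mtl1*, *rmn1*, *pla1* and *rrp6*). *ars2* turned negative there without being called (-0.30). In the GFP-Mmi1 IP they gave 341 features higher and 2046 lower, with 0 and 6 of the mRNAs, and *red1* (-0.037), *red5* (-0.12) and *pab2* (-0.14) turned negative. Between the WCE they gave 8 features higher, with *iss10* at -0.039. DESeq2 gave 1131 features higher and 933 lower in the GFP-Mmi1 IP, with 3 mRNAs higher and 3 lower, and 270 higher and 104 lower between the WCE. Over the control it called 6 of the 10 mRNAs and 1715 features higher and 1778 features lower.

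A replicate block by culture gave 269 features and 0 mRNAs lower in the GFP-Mmi1 IP and 0 mRNAs higher, and of the TAP-Mmi1 IP calls that of *erh1* was lost (0.89, adjusted p = 0.130). In the difference between strains the block by culture changed no call of the 10 mRNAs. It gave 1067 features higher and 1424 lower there, against 1291 and 1618 in the main fit. With the replicate number as a block, 2 features were lower between the WCE. The ratio rule retained 1128 features and 4 mRNAs with TMM library sizes, and 1266 and 4 with library totals without rRNA. With a relative SD under 0.2 on deposited counts it retained 3 mRNAs, *iss10*, *pab2* and *pla1*. Of the 4 mRNAs called over the control, *red1*, *red5* and *erh1* then dropped out (relative SD 0.262, 0.209 and 0.288), as did *ars2* and *rrp6*. With TMM library sizes the median WCE level of the 10 was 11.8 CPM per kb, against 43.0 with library totals.

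Leaving out each library in turn gave 865 to 1761 features higher and 934 to 1909 lower over the control, with 4 to 6 mRNAs higher and 0 to 1 lower. The TAP-Mmi1 IP gave 1279 to 2425 features higher and 1619 to 2479 lower, with 3 to 5 and 2 to 3 mRNAs. The GFP-Mmi1 IP gave 149 to 1087 and 41 to 992 features, with 0 to 3 mRNAs each way, and the WCE 1 to 53 and 0 to 16, with 0 mRNAs. Small values changed sign. Over the control these were *mtl1* (-0.12 to 0.31), *pla1* (-0.26 to 0.77) and *rrp6* (-0.086 to 0.16). In the TAP-Mmi1 IP they were *mtl1* (-0.43 to 0.0064) and *ars2* (-0.081 to 0.12), in the GFP-Mmi1 IP *pla1* (-1.01 to 0.020) and *pab2* (-0.046 to 0.67), and between the WCE *iss10* (-0.015 to 0.084) and *pla1* (-0.070 to 0.012). An arm with 1 library left was assumed to vary like the others. Except where the scaling itself sets the values, the cause of these shifts was not tested. The control IP limits the precision, with 3 to 164 reads per mRNA.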
